A study of Saccharomyces cerevisiae with 9 samples.

Results

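Loss of Pbp1 alone was examined in budding yeast by setting the mRNA levels of *pbp1Δ* cells against those of WT cells. The features are all entries of the deposited transcript table whose name marks a spliced mRNA, which were 6587 of 6952 entries. The remaining entries were 343 unspliced pre-mRNAs and 22 other RNAs. Of the 9 RNA-Seq libraries of the series, 6 entered the comparison, 3 from *pbp1Δ* and 3 from WT cells. The 3 libraries of *pab1Δpbp1Δ* cells, which lack both Pbp1 and the poly(A)-binding protein Pab1, served only for levels given at the end. All strains were *MATa* haploids of the W303 background, which carries *ura3-1*, *leu2-3,112*, *his3-11,15*, *trp1-1*, *ade2-1* and *can1-100*, and were grown in rich YEPD medium at 30 °C to exponential phase. In *pbp1Δ* cells, *URA3* takes the place of the *PBP1* coding sequence. *pbp1Δ* cells therefore differed from WT cells both in lacking *PBP1* and in carrying a functional *URA3*, and the effects of these changes cannot be told apart. By the study's methods the *pbp1Δ* libraries came from separate isolates, whereas the WT libraries were technical replicates, although its results text speaks of biological replicates for each strain. If the WT libraries are technical replicates, their spread may be smaller than that among cultures and p-values may be too small.

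Pbp1 (Pab1-binding protein 1) is the yeast ortholog of human ataxin-2. It binds Pab1, forms a complex with Mkt1, Lsm12 and Pbp4, and has been reported to associate with Puf3. Puf3 is a sequence-specific RNA-binding protein that binds the 3′ ends of many mRNAs encoding mitochondrial proteins and regulates their translation and decay. Pbp1 is also known for effects on polyadenylation, on TORC1 signaling during respiratory growth and on expression of the *HO* endonuclease.

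The oligonucleotides designed for the deletion place its ends. Of the oligonucleotides used to amplify the flanks, the pair nearest to the gene is shown to mark where the replaced sequence begins and ends, with the bases that match the R64 genome in capitals and added tails in lower case.
PBP1_5R_v2: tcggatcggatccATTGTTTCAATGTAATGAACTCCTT
PBP1_3F_v2: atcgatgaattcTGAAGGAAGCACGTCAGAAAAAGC
The first matched chrVII:853216-853240 and the second chrVII:851023-851046. They abut the coding sequence of *PBP1* (YGR178C), which lies on the minus strand at chrVII:851047-853215.

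The *PBP1* transcript was nearly absent from the deletion strain. Its level was 1.13, 0.851 and 0.850 CPM (counts scaled to library size, with TMM factors) in the 3 *pbp1Δ* isolates, against 312.8, 306.2 and 318.3 CPM in the 3 WT libraries (log2 fold change -8.35, SE 0.096, edgeR adjusted p = 7.48e-12). *URA3* mRNA stood at 86.6, 90.9 and 83.1 CPM in *pbp1Δ* cells and 54.8, 51.2 and 51.1 CPM in WT cells, where the *ura3-1* allele is transcribed. Of the 8 other genes listed as neighbors of *PBP1* on chromosome VII, none passed the threshold in the edgeR test, 3 had an unadjusted p under 0.05, all on the higher side, and DESeq2 called 1 higher. Without *pbp1Δ* isolate 1, the list with *PBP1* itself gave 3 calls. *PAB1* mRNA did not pass the threshold, with 1436 ± 118 CPM in *pbp1Δ* and 1662 ± 39.7 CPM in WT cells (SD, n = 3 each, edgeR adjusted p = 0.0574).

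Libraries held 75215943 to 100361368 expected counts in *pbp1Δ* and 73062345 to 87763579 in WT cells. The biological coefficient of variation was 7.19% within *pbp1Δ* and 6.15% within WT libraries, and no pair of libraries agreed within sampling noise. *STE2*, an a-specific transcript of *MATa* cells, had 582 to 616 CPM in *pbp1Δ* and 545 to 570 CPM in WT cells. The 7 a-specific mRNAs were not all abundant, since 1 was in the lowest of 5 equal groups by WT level. That mRNA, *ASG7*, was the only one called (log2 fold change 0.70, higher in *pbp1Δ*). Of the alpha-specific transcripts, *MF(ALPHA)1* and *MF(ALPHA)2* stayed below 0.40 CPM, whereas *SAG1* had 52.5 to 55.8 CPM in *pbp1Δ* and 46.3 to 50.6 CPM in WT cells. Median changes over single chromosomes were within -0.02 to 0.07 on the log2 scale, with no chromosome gained or lost.

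At an adjusted p under 0.01 in edgeR's quasi-likelihood test, 722 of 6092 tested mRNAs differed between *pbp1Δ* and WT cells (11.9%). Of these, 334 were higher (5.48%) and 388 lower (6.37%) in *pbp1Δ* cells. Nearly all changes were small. The median absolute log2 fold change of the called mRNAs was 0.34, and 20 of them were at least 2-fold higher and 8 at least 2-fold lower. Library values of the strains did not overlap for any called mRNA, although this also held for 43.1% of all tested mRNAs.

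The number of calls differed between fits. When the WT counts were summed into 1 sample, so that only the *pbp1Δ* isolates gave the spread and 4 samples entered the fit, 222 of 6209 mRNAs were called (3.58%), of which 61 were higher and 161 lower. Leaving out 1 library at a time gave 561 calls without WT replicate 1, 354 without WT replicate 2, 355 without WT replicate 3, 672 without *pbp1Δ* isolate 1, 359 without isolate 2 and 316 without isolate 3. A core of 248 mRNAs, 82 higher and 166 lower, was called in the full set and in all 6 of these fits. Adding the *pab1Δpbp1Δ* libraries, whose coefficient of variation was 21.9%, to the estimate of spread reduced the calls to 18. Individual genes described below kept their call in all 6 fits without a library unless stated otherwise, and most lost it in the fit of all 9 libraries.

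**Figure D1:**
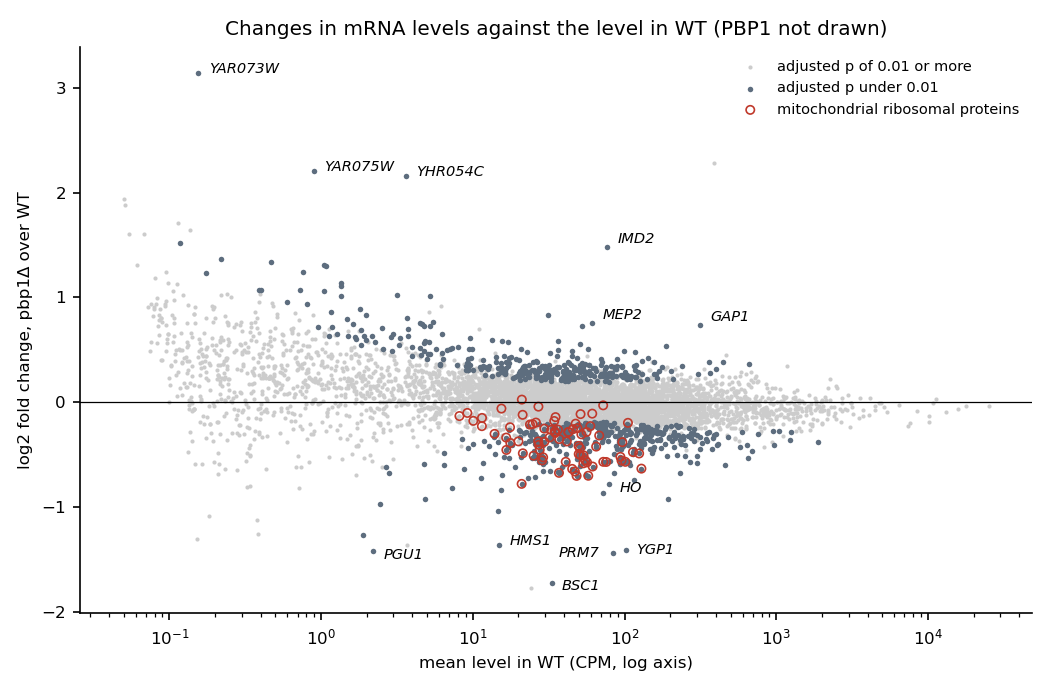
Log2 fold change (*pbp1Δ* over WT, vertical axis) of each tested mRNA against its mean level in WT cells (CPM, log axis). Grey points are mRNAs that did not pass the threshold, dark points are called mRNAs and red circles are mitochondrial ribosomal proteins. The called mRNAs lie mostly close to 0, the red circles lie almost all below it, and mRNAs of low level in WT cells are spread toward positive values, with the WT level on one axis and in the denominator of the other. WT levels under 0.05 CPM are drawn at 0.05.

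The direction of change differed between mRNAs of low and high level. When the mRNAs were split into 5 equal groups by mean level over all 6 libraries, the group of lowest level reached up to 9.97 CPM. In it the median log2 fold change was 0.18, with 76 called higher and 16 lower. In the group of highest level the median was -0.05, with 20 called higher and 81 lower. Of 5 equal groups by gene length in RefSeq, the shortest genes had a median of 0.09, with 89 called higher and 41 lower, and the longest had -0.06, with 24 higher and 64 lower. Of the 20 mRNAs that were at least 2-fold higher in *pbp1Δ* cells, 19 were in the group of lowest level, and the exception was *IMD2*. The median over all tested mRNAs was 0.01. The part of level and length in the calls was not tested.

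Of the 46 gene lists examined, the lowest medians were those of mRNAs for the mitochondrial ribosome, which translates the few proteins encoded by mitochondrial DNA. Among 75 mRNAs for its proteins, all encoded in the nucleus, 48 were lower in *pbp1Δ* cells, against 6.37% of all mRNAs, and none was higher. In all, 74 of the 75 had a negative log2 fold change, and the median was -0.38. For the large subunit, 28 of 43 mRNAs fell (median -0.38), and for the small subunit 20 of 32 fell (median -0.36). None of the 75 rose at an unadjusted p under 0.05 in edgeR, and none was called higher by DESeq2. The isolates were alike, since the median of the large subunit mRNAs against the WT mean was -0.30, -0.40 and -0.39 in isolates 1, 2 and 3, and that of the small subunit was -0.33, -0.36 and -0.35. With the WT libraries summed to 1 sample, 38 of the 75 were still lower. Together the large subunit mRNAs made up 0.129% ± 0.0048 of the TMM-scaled library size over all tested entries in *pbp1Δ* and 0.171% ± 0.0051 in WT cells (SD, n = 3 each).

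The log2 fold changes of these mRNAs ran from -0.78 to 0.02, and the members described here were among the largest falls. Without 1 library, 19 to 29 large subunit and 17 to 20 small subunit mRNAs were called. *MRPL24*, a protein of the large subunit, had 12.9, 12.3 and 11.4 CPM in *pbp1Δ* isolates, against 21.4, 21.4 and 20.1 CPM in WT libraries (log2 fold change -0.78, SE 0.062, edgeR adjusted p = 6.03e-05). *PET123*, a protein of the small subunit, had 30.8, 28.9 and 29.3 CPM in *pbp1Δ* and 49.7, 48.6 and 46.7 CPM in WT cells (log2 fold change -0.70, SE 0.048, edgeR adjusted p = 3.47e-05). For both, every isolate lay well below every WT library. *RSM25*, also of the small subunit, averaged 35.4 ± 1.97 CPM in *pbp1Δ* and 57.7 ± 1.01 CPM in WT cells (SD, n = 3 each, log2 fold change -0.70). *MRPL40*, of the large subunit, averaged 23.2 ± 1.00 CPM in *pbp1Δ* and 37.0 ± 1.14 CPM in WT cells (log2 fold change -0.68).

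Lower mRNAs were also found among other factors that express the mitochondrial genome. Among 43 mRNAs for mitochondrial translation factors, aminoacyl-tRNA synthetases, RNA polymerase and RNA-processing enzymes, 21 were lower and 0 higher in *pbp1Δ* cells, with a median of -0.27. At an unadjusted p under 0.05, edgeR gave 30 lower and 1 higher, and DESeq2 called 24 lower and 0 higher. *MEF1*, the mitochondrial translation elongation factor G, fell to 69.4, 70.4 and 67.3 CPM in *pbp1Δ* isolates, against 121.4, 106.8 and 118.6 CPM in WT libraries (log2 fold change -0.74, SE 0.056, edgeR adjusted p = 5.52e-05). *RPO41*, the mitochondrial RNA polymerase, averaged 114 ± 4.39 CPM in *pbp1Δ* and 155 ± 1.08 CPM in WT cells (log2 fold change -0.44). *MTO1*, which modifies mitochondrial tRNAs, was among the 15 largest falls outside any list, at 40.1, 38.8 and 39.4 CPM in *pbp1Δ* and 72.1, 74.7 and 68.9 CPM in WT cells (log2 fold change -0.87). *CBP6*, an activator of cytochrome *b* mRNA translation, had a log2 fold change of -0.64. For *MEF1* and *MTO1* the 3 isolates thus lay within a few CPM of each other and below every WT library. Libraries of the strains did not overlap for any called mRNA, nor for 43.1% of all tested mRNAs.

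In the respiratory chain itself the median was nearer to 0. Of 44 mRNAs for subunits of the respiratory complexes, cytochrome *c*, NADH dehydrogenases and ATP synthase, 17 were lower and 1 higher (median -0.23). The lower mRNAs included *NDI1*, the internal NADH dehydrogenase, with 75.5, 69.9 and 70.6 CPM in *pbp1Δ* isolates, against 112.1, 103.2 and 105.4 CPM in WT libraries (log2 fold change -0.57, SE 0.051, edgeR adjusted p = 9.3e-05). *RIP1*, the Rieske iron-sulfur protein of complex III, averaged 108 ± 3.87 CPM in *pbp1Δ* and 151 ± 2.36 CPM in WT cells (log2 fold change -0.48). The genes for the cytochrome *c* isoforms moved in opposite directions. *CYC1*, isoform 1 and the major form in aerobic cells, had 192.0, 154.5 and 175.7 CPM in *pbp1Δ* and 265.4, 243.5 and 237.5 CPM in WT cells (log2 fold change -0.52). *CYC7*, isoform 2, which is favored at low oxygen, had 8.04, 6.99 and 6.82 CPM in *pbp1Δ* and 5.23, 5.12 and 4.29 CPM in WT cells (log2 fold change 0.58), although its call was lost without *pbp1Δ* isolate 2 (adjusted p = 0.0139). The count for the list, 18 of either direction, was 11 without WT replicate 2, 10 without WT replicate 3, 9 without *pbp1Δ* isolate 2 and 7 without isolate 3. *HAP4*, the regulated subunit of the HAP complex that activates respiratory genes, averaged 37.8 ± 3.52 CPM in *pbp1Δ* and 54.2 ± 3.74 CPM in WT cells (log2 fold change -0.52).

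Among 35 assembly factors of the respiratory complexes, 8 fell and 0 rose (median -0.18), with 1 higher at an unadjusted p under 0.05 in edgeR and 0 higher by DESeq2. *COX10*, needed for the heme A of cytochrome oxidase, had 21.4, 20.4 and 19.1 CPM in *pbp1Δ* isolates and 32.9, 31.3 and 31.9 CPM in WT libraries (log2 fold change -0.66, SE 0.055, edgeR adjusted p = 7.72e-05). *BCS1*, a chaperone of complex III, had a log2 fold change of -0.61. The count was 5 without *pbp1Δ* isolate 2 and also 5 without isolate 3. Of 40 mRNAs for the mitochondrial protein import machinery, 9 fell and 1 rose, with a median of -0.08, and with the WT libraries summed to 1 sample 5 were lower and 0 higher. The TCA cycle had the median nearest to 0 of the mitochondrial lists, at 0.02, with 7 positive and 6 negative log2 fold changes. In it 3 of 13 mRNAs were lower (23.1%), *ACO1*, *IDH1* and *IDH2*. These 3 genes are also targets of the retrograde pathway, a list of 10 in which *CIT2* and *PYC1* were lower too and none was higher (median -0.20). With the WT libraries summed to 1 sample, none of the TCA cycle or retrograde mRNAs was called. None was called either without WT replicate 2 or without *pbp1Δ* isolate 3, whereas without WT replicate 3 the TCA cycle count was 1 and the retrograde count 2, and without WT replicate 1 or isolate 2 the retrograde count was 3.

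Over the 7 mitochondrial lists, 106 of 250 mRNAs were lower and 2 higher. These mRNAs were 4.10% of the tested mRNAs and 27.3% of the mRNAs called lower.

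**Figure D2:**
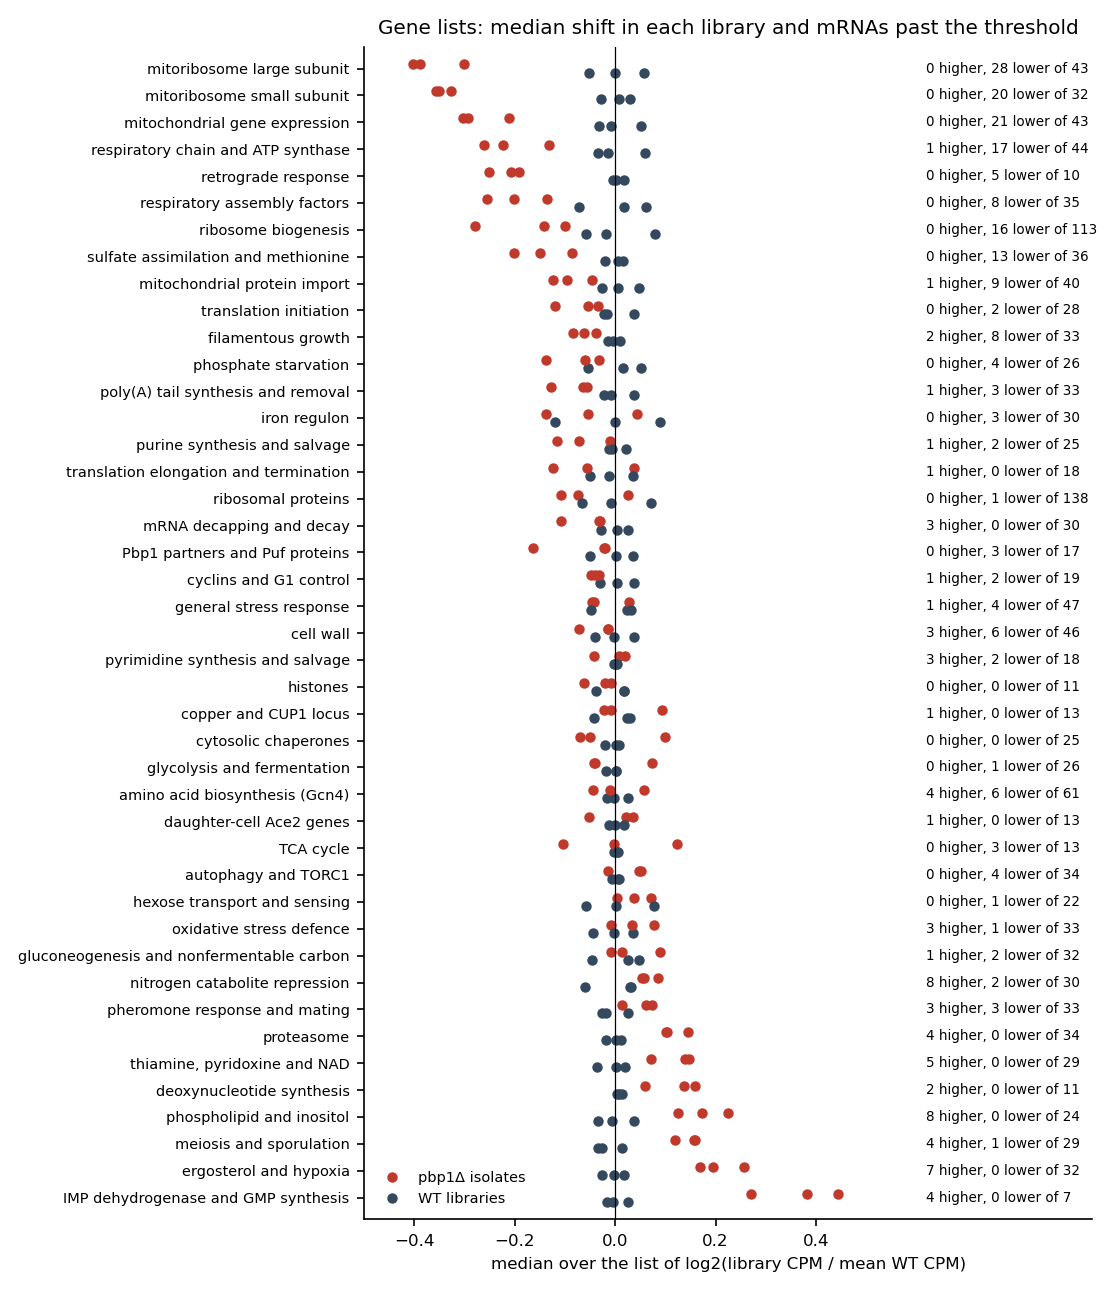
Median over each of 43 gene lists of the log2 ratio between a library and the mean of the WT libraries (horizontal axis), with 1 red point for each *pbp1Δ* isolate and 1 dark point for each WT library, and the numbers of mRNAs called higher and lower of those tested at the right. The mitochondrial ribosome lists lie lowest, at -0.30 to -0.40, with all isolates apart from all WT libraries, while the list of IMP dehydrogenase and GMP synthesis, which includes 2 entries nearly identical to *IMD2*, is drawn highest.

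Since Pbp1 has been reported to associate with Puf3, the 200 bases after the stop codon of each mRNA were searched for the Puf3 core motif TGTANATA on the sense strand. Of 5710 tested mRNAs with a coding sequence in RefSeq, 833 held it (14.6%). It was present in 43 of 43 large subunit and 31 of 32 small subunit mRNAs of the mitochondrial ribosome, in 33 of 43 mRNAs for mitochondrial gene expression, in 32 of 35 for respiratory assembly factors and in 24 of 40 for protein import. It was found in 6 of 44 respiratory chain and 1 of 13 TCA cycle mRNAs. The windows below, from the R64 genome, show the sites of mRNAs with some of the largest falls, with the motif in capitals and 5′ to 3′ on the strand of the gene.
MTO1: tagcttgtataTGTAAATAattcattgtat
MRPL24: tggttttccccTGTATATAaaaaagcatat
MEF1: caaaacagtctTGTAAATAacaaattccaa
PET123: aaatatgcccaTGTATATAcgtcacttgcg
RSM25: cctaaccaaccTGTATATAattaaaaacaa
MRPL40: tatattcgaccTGTATATAtgaaagcataa
MRPS35: ccattattactTGTACATAaaatattctac
COX10: gtcattaatctTGTAAATAaatatttaaac
ARG1: cactcttgtgaTGTAAATAcatatgtagac
They lie at chrVII:53742-53771 (minus strand) for *MTO1*, chrXIII:650856-650885 (plus) for *MRPL24*, chrXII:271585-271614 (minus) for *MEF1*, chrXV:633220-633249 (plus) for *PET123*, chrIX:187933-187962 (minus) for *RSM25*, chrXVI:224133-224162 (plus) for *MRPL40*, chrVII:830212-830241 (plus) for *MRPS35*, chrXVI:224283-224312 (minus) for *COX10* and chrXV:220535-220564 (plus) for *ARG1*. *ARG1*, argininosuccinate synthetase, is shown as an example outside the mitochondrial lists (log2 fold change -0.67).

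The calls were then counted for mRNAs with and without the motif. Of the 833 with a match, 155 were lower (18.6%) and 30 higher (median -0.07), whereas of the 4877 without a match 228 were lower (4.68%) and 297 higher (median 0.01). Within the mitochondrial lists, 81 of 170 mRNAs with the motif were lower (47.6%, median -0.28), and 25 of 80 without it were lower (31.2%, median -0.15). Outside those lists, 74 of 663 with the motif were lower (11.2%, median -0.02), against 203 of 4797 without it (4.23%, median 0.02). Of all mRNAs called lower, 155 of 383 held the motif (40.5%), and 228 did not. *NDI1*, *RIP1*, *CYC1* and *PUF3* were among those without a match. The Puf4 motif TGTANANTA, searched in the same windows, was present in 424 mRNAs (7.43%), 45 of which also held the Puf3 motif. Of the 424, 46 were lower (10.8%, median -0.08), against 6.38% of those without it, and of the 379 without the Puf3 motif 41 were lower (10.8%). Ribosome biogenesis mRNAs, a list with a median of -0.17, held the Puf4 motif in 56 of 113 cases (49.6%). The differences in these shares were not tested, and a match describes only the letters in the window.

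**Figure D3:**
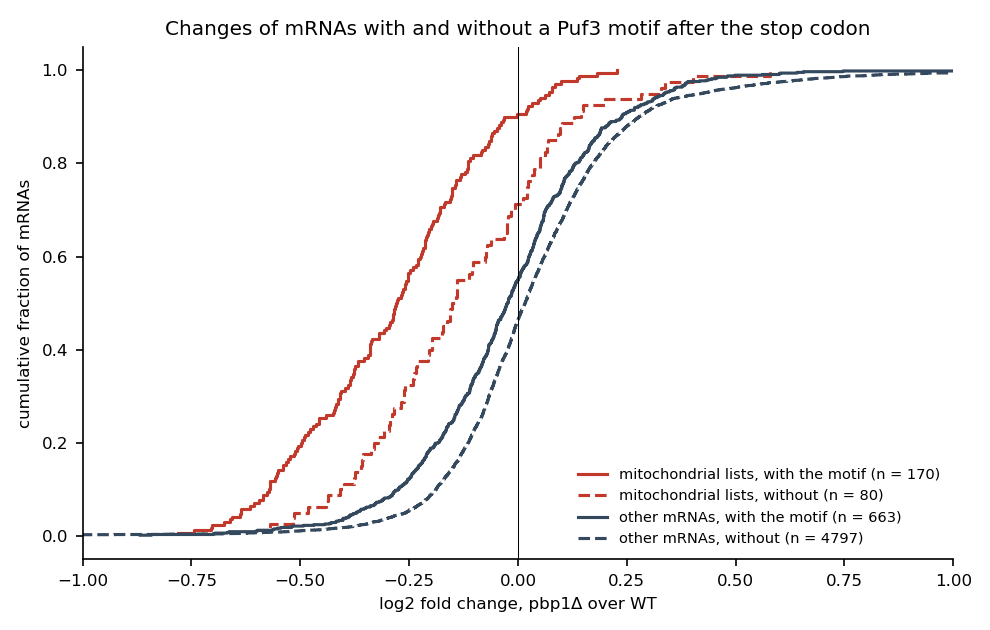
Cumulative distribution of the log2 fold change (*pbp1Δ* over WT, horizontal axis, drawn between -1 and 1) for mRNAs of the mitochondrial lists (red) and other mRNAs (dark), with the Puf3 motif after the stop codon (solid) and without it (dashed). The curve of the 170 mitochondrial mRNAs with the motif lies farthest to the left (median -0.28), followed by that of the 80 without it (median -0.15).

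Transcripts of Pbp1, its partners and Puf proteins gave 3 lower of 17, *PBP1* among them, and 0 higher. The share called was 17.6%, against 11.9% of all mRNAs, and the median was -0.05, with 13 negative log2 fold changes. At an unadjusted p under 0.05 edgeR gave 7 lower and 1 higher, and DESeq2 called 6 lower and 0 higher. *PUF3* mRNA had 209.3, 218.2 and 219.3 CPM in *pbp1Δ* isolates and 267.2, 273.4 and 280.6 CPM in WT libraries (log2 fold change -0.34, SE 0.050, edgeR adjusted p = 0.00139), a call that was lost with the WT libraries summed to 1 sample. *PUF4*, which binds mRNAs of ribosome biogenesis factors, had a log2 fold change of -0.31 but was called in only 2 of the 6 fits without a library. The partners of Pbp1 did not pass the threshold, with log2 fold changes of 0.08 for *MKT1*, 0.04 for *LSM12* and -0.08 for *PBP4*. *HO*, whose expression Pbp1 and Mkt1 have been reported to promote after transcription, fell to 42.9, 48.7 and 46.8 CPM in *pbp1Δ* isolates, against 73.1, 79.3 and 85.2 CPM in WT libraries (log2 fold change -0.78, SE 0.067, edgeR adjusted p = 7.72e-05). Among 33 mRNAs for poly(A) tail synthesis and removal, 3 fell and 1 rose, a share near that of all mRNAs (11.9%), and 27 had a negative log2 fold change. At an unadjusted p under 0.05, edgeR gave 14 lower and 2 higher for this list, and DESeq2 called 9 lower and 1 higher. Another 30 mRNAs for decapping and decay gave 0 lower and 3 higher. For decapping and decay, edgeR gave 8 lower and 6 higher at an unadjusted p under 0.05, and DESeq2 called 2 lower and 3 higher. These small counts were not stable, with 0 for the poly(A) list without WT replicate 2 or 3 and 1 without *pbp1Δ* isolate 2 or 3, and with 0 for decapping and decay without WT replicate 2 or isolate 3 and 1 without WT replicate 3 or isolate 2.

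Among genes of nucleotide metabolism, the clearest change was in IMP dehydrogenase, which catalyzes the first step from IMP to GMP and is encoded by the *IMD* family. *IMD2* had 203.5, 230.3 and 209.2 CPM in *pbp1Δ* isolates, against 77.6, 75.2 and 78.5 CPM in WT libraries (log2 fold change 1.48, SE 0.058, edgeR adjusted p = 7.34e-07). Every isolate was thus far above every WT library. *IMD2* transcription is known to respond to the guanine nucleotide pool through the choice of its start site. *IMD3* stood at 792, 894 and 856 CPM in *pbp1Δ* and 639, 641 and 691 CPM in WT cells (log2 fold change 0.37, edgeR adjusted p = 0.00474), a call that was lost in 5 of 6 fits without a library and with the WT libraries summed to 1 sample (adjusted p = 0.123). *IMD4* did not pass (log2 fold change 0.19, edgeR adjusted p = 0.0376). Per length, *IMD2* had 127 to 138 FPKM in *pbp1Δ* and 44.9 to 46.4 FPKM in WT cells, whereas *IMD3* had 457 to 492 FPKM in *pbp1Δ* and 344 to 377 FPKM in WT cells, so *IMD3* remained the more abundant form in both strains. Entries YAR073W and YAR075W, fragments of the *IMD1* pseudogene that are nearly identical to *IMD2*, also rose (log2 fold changes 3.14 and 2.20) at levels below 5 CPM, and reads of *IMD2* may have been assigned to them. *GUA1*, GMP synthase, and *GUK1*, guanylate kinase, had log2 fold changes of -0.08 and 0.20 and did not pass. The median of the list was 0.37 with YAR073W and YAR075W and 0.20 over the 5 other members.

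The rest of the nucleotide pathways moved little and in both directions. Of 25 mRNAs for purine synthesis and salvage, *ADE2* was higher and *HPT1* and *FCY2* were lower (median -0.07). The share called was 12.0%, near the 11.9% of all mRNAs. The count of 3 was 0 without *pbp1Δ* isolate 2 and 1 without WT replicate 2, WT replicate 3 or isolate 3. *ADE2* and *FCY2* each lost the call in 5 of the 6 fits without a library. *HPT1*, which salvages hypoxanthine and guanine, had 131, 137 and 153 CPM in *pbp1Δ* isolates and 183, 185 and 188 CPM in WT libraries (log2 fold change -0.40), and its call was lost without *pbp1Δ* isolate 2 (adjusted p = 0.0114) and with the WT libraries summed to 1 sample (adjusted p = 0.013). Of 18 mRNAs for pyrimidine synthesis and salvage, 3 rose and 2 fell (27.8% called, median -0.02). The count of 5 was 2 without WT replicate 2, WT replicate 3 or *pbp1Δ* isolate 2 and 3 without WT replicate 1 or isolate 3. The rises were *URA3*, the replacement marker, *URA8* and *FCY1*, and the falls were *URA1* and *FUR4*, the uracil permease. *FCY1*, cytosine deaminase, lost its call in 3 of the 6 fits without a library (adjusted p = 0.0116 to 0.0211) and *FUR4* in 5 of them. *URA8*, a CTP synthase, had 75.6, 87.7 and 80.8 CPM in *pbp1Δ* and 56.6, 57.3 and 57.7 CPM in WT cells (log2 fold change 0.51, SE 0.056, edgeR adjusted p = 0.000312). The fall of *URA1*, dihydroorotate dehydrogenase, was small (log2 fold change -0.23) and was called in none of the 6 fits without a library. Among 11 mRNAs for deoxynucleotide synthesis, *RNR3* and *HUG1*, both induced by replication stress, were called higher (log2 fold changes 0.53 and 0.61, 18.2% called). None was called lower, with 1 lower by DESeq2 and 1 at an unadjusted p under 0.05 in edgeR. Both higher mRNAs were in the lowest of 5 equal groups by WT level, and that group as a whole had a median of 0.19. *RNR3* was not called without *pbp1Δ* isolate 2 (adjusted p = 0.0117) or isolate 3 (adjusted p = 0.0113), and *HUG1* was kept only in the fits without WT replicate 1 or *pbp1Δ* isolate 2.

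Genes tied to filamentous growth, the elongated and invasive form that yeast takes under nutrient limitation, gave 8 lower and 2 higher mRNAs of 33 (median -0.07). The share called was 30.3%, against 11.9% of all mRNAs. *BSC1*, a cell surface protein related to mucins, showed the largest fall of any called mRNA after *PBP1*. Its level was 8.69, 10.6 and 10.7 CPM in *pbp1Δ* isolates and 28.4, 36.5 and 34.3 CPM in WT libraries (log2 fold change -1.73, SE 0.105, edgeR adjusted p = 1.95e-05). Next to it on chromosome IV, *PRM7* (chrIV:381985-384081, against chrIV:384601-385587 for *BSC1*) had 26.5, 32.5 and 33.6 CPM in *pbp1Δ* and 66.8, 96.3 and 87.7 CPM in WT cells (log2 fold change -1.44, SE 0.152, edgeR adjusted p = 0.00123). Its call was lost without WT replicate 3 (log2 fold change -1.40, adjusted p = 0.012) and without *pbp1Δ* isolate 1 (-1.34, adjusted p = 0.0213). The values of neighbors are not independent evidence, and for both genes every isolate lay below every WT library. *PGU1*, an endopolygalacturonase induced by the filamentation pathway, was low throughout, at 0.854, 0.630 and 1.00 CPM in *pbp1Δ* and 2.10, 2.46 and 2.08 CPM in WT cells (log2 fold change -1.42).

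Regulators of filamentous growth fell by less. *PHD1*, a transcription factor whose overexpression promotes pseudohyphal growth, had 195.5, 199.0 and 203.3 CPM in *pbp1Δ* isolates and 291.7, 297.0 and 307.4 CPM in WT libraries (log2 fold change -0.58, SE 0.050, edgeR adjusted p = 7.72e-05). *SFG1*, another such transcription factor, averaged 158 ± 5.01 CPM in *pbp1Δ* and 213 ± 9.50 CPM in WT cells (log2 fold change -0.43). The GTPase *RAS2*, upstream of both cAMP and MAP kinase signaling, averaged 75.7 ± 1.27 CPM in *pbp1Δ* and 93.5 ± 1.07 CPM in WT cells (log2 fold change -0.30), a call that was lost with the WT libraries summed to 1 sample (adjusted p = 0.0201). *CLN1*, a G1 cyclin, had a log2 fold change of -0.44, with its call lost without *pbp1Δ* isolate 2 (adjusted p = 0.0109), and *STE20*, a kinase of the pathway, had -0.26 and lost its call in all 6 fits without a library. *HMS1*, a basic helix-loop-helix protein whose overexpression promotes pseudohyphae, was in the set of 15 largest falls and not in the list, with 5.58, 6.23 and 5.55 CPM in *pbp1Δ* and 15.4, 14.5 and 14.9 CPM in WT cells (log2 fold change -1.37, edgeR adjusted p = 6.78e-06). The transcription factors at the end of the pathway, *TEC1* and *STE12*, did not pass, with log2 fold changes of 0.01 and -0.05. *FLO11*, the adhesin that serves as the usual reporter, did not pass either, at 48.2, 49.9 and 52.6 CPM in *pbp1Δ* and 54.1, 52.8 and 51.9 CPM in WT cells (log2 fold change -0.08, SE 0.047). The higher members were *MEP2*, an ammonium permease and sensor, and *FLO10*, a flocculin whose call (log2 fold change 0.23) was kept only without *pbp1Δ* isolate 1.

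The binding motifs of Tec1 and Ste12 were searched upstream of each gene. In the 500 bases before the coding start, on either strand, the Tec1 motif, CATTCC or CATTCT, was found in 40.9% of genes, and 159 of the 2334 with it were lower (6.81%), against 6.64% of those without it. The Ste12 motif TGAAACA was found in 11.6% of genes, and 51 of 662 with it were lower (7.70%), against 6.58% of those without it. In the filamentous growth list, 18 of 33 promoters held the Tec1 motif and 8 held the Ste12 motif.

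Among nitrogen genes more mRNAs were called higher than lower. Of 30 mRNAs under nitrogen catabolite repression, which are kept low when good nitrogen sources are present, 8 were higher and 2 lower (median 0.06). Of all mRNAs, 5.48% were higher and 6.37% lower. Of the 8 that rose, 4 belonged to the lowest of 5 equal groups by WT level, as did 7 of the 30 members. That group as a whole had a median of 0.19. *GAP1*, the general amino acid permease, had 471, 607 and 492 CPM in *pbp1Δ* isolates and 340.7, 302.6 and 300.1 CPM in WT libraries (log2 fold change 0.74, SE 0.098, edgeR adjusted p = 0.000896). *MEP2* had 90.2, 117 and 102 CPM in *pbp1Δ* and 63.2, 61.0 and 59.2 CPM in WT cells (log2 fold change 0.75). Isolate 2 was the highest for both. Allantoin genes *DAL1*, *DAL3* and *DAL80* had log2 fold changes of 0.54, 0.51 and 0.74. The call of *DAL1* was lost in 4 of the 6 fits without a library (adjusted p = 0.0121 to 0.0185), and that of *DAL80* without *pbp1Δ* isolate 2 (adjusted p = 0.0118). The count for the list fell to 6 without WT replicate 2 or 3 and to 4 without *pbp1Δ* isolate 2 or 3, and 4 were called with the WT libraries summed to 1 sample.

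**Figure D4:**
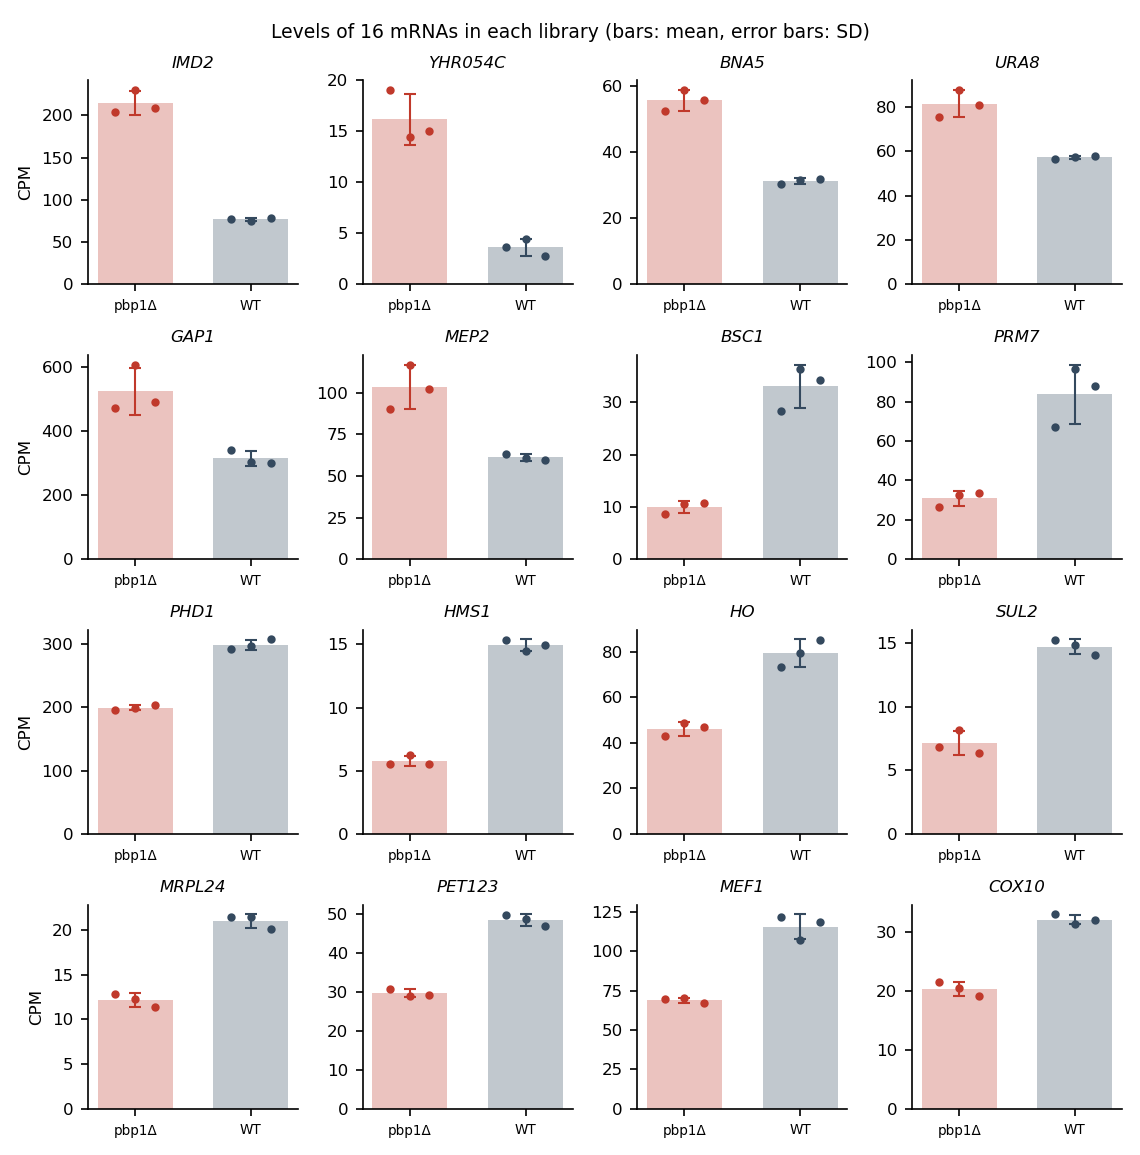
Levels (CPM, vertical axes, each from 0) of 16 mRNAs in *pbp1Δ* (red, left) and WT (dark, right) libraries. Points are the 3 libraries of a strain, bars their mean and error bars the SD. All 16 are called mRNAs, for none of which the libraries of the strains overlap, which also holds for 43.1% of all tested mRNAs. *IMD2* is at 204 to 230 CPM in *pbp1Δ* and 75.2 to 78.5 CPM in WT cells. *MRPL24* is at 11.4 to 12.9 CPM in *pbp1Δ* and 20.1 to 21.4 CPM in WT cells.

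Of 36 mRNAs for the uptake and reduction of sulfate and for methionine synthesis, 13 were lower, against 6.37% of all mRNAs, and 0 were higher. The median was -0.12 and 10 had a positive log2 fold change, with 1 higher at an unadjusted p under 0.05 in edgeR and 1 higher by DESeq2. *SUL2*, a high-affinity sulfate permease, had 6.87, 8.20 and 6.37 CPM in *pbp1Δ* isolates and 15.2, 14.9 and 14.1 CPM in WT libraries (log2 fold change -1.04, SE 0.091, edgeR adjusted p = 8.24e-05). *MET3*, ATP sulfurylase, averaged 62.5 ± 7.95 CPM in *pbp1Δ* and 93.8 ± 4.61 CPM in WT cells (log2 fold change -0.59), and *MET16*, PAPS reductase, averaged 12.3 ± 0.162 CPM in *pbp1Δ* and 18.9 ± 1.75 CPM in WT cells (log2 fold change -0.62). The count was 7 without *pbp1Δ* isolate 3 and also 7 with the WT libraries summed to 1 sample. Of 26 phosphate-starvation mRNAs, 4 fell (15.4%, against 6.37% of all mRNAs), and 2 were called without *pbp1Δ* isolate 2 or 3. *PHO5*, a secreted acid phosphatase, led these falls, with 111, 94.1 and 100.4 CPM in *pbp1Δ* and 229, 160 and 189 CPM in WT cells (log2 fold change -0.92). The call of *PHO5* was lost without *pbp1Δ* isolate 1 (edgeR adjusted p = 0.0327). *YGP1*, a cell wall protein, fell to 46.0, 37.1 and 32.2 CPM in *pbp1Δ* cells, against 128, 96.8 and 81.9 CPM in WT cells, but its call (edgeR adjusted p = 0.00836) was lost in all 6 fits without a library.

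Some mRNAs of lipid synthesis and hypoxic growth rose, while most did not pass the threshold in edgeR. Of 32 mRNAs for ergosterol synthesis and hypoxic growth, 7 rose and 0 fell (median 0.22), 29 of them with a positive log2 fold change. Of 24 mRNAs for phospholipid and inositol metabolism, 8 rose and 0 fell (median 0.14), against 5.48% higher of all mRNAs. No member of either list was lower at an unadjusted p under 0.05 in edgeR or in DESeq2. At that unadjusted p, edgeR gave 25 ergosterol and hypoxia mRNAs and 12 phospholipid mRNAs higher. DESeq2 called 17 and 8 of them higher. *ERG28*, a scaffold protein of the ergosterol enzymes, averaged 163 ± 9.53 CPM in *pbp1Δ* and 117 ± 7.29 CPM in WT cells (log2 fold change 0.48, edgeR adjusted p = 0.000792). *ERG26*, a sterol dehydrogenase, had a log2 fold change of 0.34 and lost its call without WT replicate 2 and with the WT libraries summed to 1 sample. *ERG10* and *ERG27*, with 0.32 and 0.29, lost theirs in 5 and 4 of the 6 fits without a library. The 2 largest rises of the list were hypoxic genes outside lipid synthesis, both in the group of lowest level. *ANB1*, the hypoxic form of the translation factor eIF5A, had 6.42, 6.72 and 6.26 CPM in *pbp1Δ* isolates and 3.00, 3.32 and 3.23 CPM in WT libraries (log2 fold change 1.02, SE 0.087, edgeR adjusted p = 7.72e-05). *AAC3*, the hypoxic ADP/ATP carrier, averaged 9.33 ± 1.01 CPM in *pbp1Δ* and 5.48 ± 0.433 CPM in WT cells (log2 fold change 0.77). Both genes are low in air, and their libraries did not overlap between strains, as for every called mRNA. *OPI3*, a phospholipid methyltransferase, had a log2 fold change of 0.56, with its call lost without *pbp1Δ* isolate 2. *INO1*, inositol-3-phosphate synthase, had 8.70, 13.2 and 9.73 CPM in *pbp1Δ* and 5.26, 6.16 and 4.18 CPM in WT cells (log2 fold change 1.01, edgeR adjusted p = 0.00589), but the call was lost without WT replicate 1 (adjusted p = 0.0605), WT replicate 3 (0.0236), *pbp1Δ* isolate 2 (0.0107) or isolate 3 (0.0162). The phospholipid count was 2 without WT replicate 2, WT replicate 3 or *pbp1Δ* isolate 2 and 3 without isolate 3. The ergosterol count was 3 without WT replicate 2, 4 without *pbp1Δ* isolate 2 or 3, and 12 without isolate 1. With the WT libraries summed to 1 sample, 3 ergosterol and hypoxia mRNAs and 1 phospholipid mRNA were called.

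In NAD synthesis from tryptophan, 3 *BNA* genes rose. *BNA5*, kynureninase, had 52.4, 58.8 and 55.8 CPM in *pbp1Δ* isolates and 30.3, 31.5 and 31.8 CPM in WT libraries (log2 fold change 0.84, SE 0.053, edgeR adjusted p = 2.06e-05). *BNA4*, kynurenine 3-monooxygenase, averaged 54.3 ± 2.18 CPM in *pbp1Δ* and 36.2 ± 0.137 CPM in WT cells (log2 fold change 0.58), and *BNA6* had a log2 fold change of 0.48. *BNA5* was one of few genes still called in the fit of all 9 libraries. Of the 29 mRNAs for thiamine, pyridoxine and NAD, 5 rose (17.2%, against 5.48% of all mRNAs) and 0 fell (median 0.12). At an unadjusted p under 0.05 edgeR gave 1 lower, and DESeq2 called 0 lower. The count was 3 without WT replicate 2 or *pbp1Δ* isolate 2 or 3. YHR054C, an entry within the *CUP1* repeats of chromosome VIII, rose to 19.1, 14.4 and 15.04 CPM in *pbp1Δ* cells, against 3.64, 4.40 and 2.79 CPM in WT cells (log2 fold change 2.16, SE 0.162, edgeR adjusted p = 7.72e-05). *CUP1-1*, the metallothionein of the same repeat, had 164 ± 10.8 CPM in *pbp1Δ* and 165 ± 6.40 CPM in WT cells. The repeats are near-identical, so the origin of these reads is uncertain.

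Among cytosolic translation genes, the median of ribosome biogenesis mRNAs lay below that of every WT library in each isolate. Of 113 ribosome biogenesis mRNAs, 16 were lower (14.2%, against 6.37% of all mRNAs) and 0 higher. In all, 107 had a negative log2 fold change and the median was -0.17. In edgeR 69 were lower and 0 higher at an unadjusted p under 0.05, and DESeq2 called 35 lower and 0 higher. The number of calls was 4 without WT replicate 2, 2 without WT replicate 3, 3 without *pbp1Δ* isolate 2 and 0 without isolate 3. The isolates also differed, with medians of -0.28, -0.10 and -0.14 against the WT mean in isolates 1, 2 and 3. The WT libraries themselves had medians of -0.06, -0.02 and 0.08. Of 138 ribosomal protein mRNAs 1 was lower, *RPS9A*, with 135, 152 and 149 CPM in *pbp1Δ* isolates and 238, 229 and 231 CPM in WT libraries (log2 fold change -0.68, edgeR adjusted p = 7.72e-05). The ribosomal protein median was -0.06, but library medians overlapped, at 0.03, -0.11 and -0.07 in *pbp1Δ* isolates and 0.07, -0.01 and -0.07 in WT libraries. In this list none was called higher by edgeR or DESeq2, and DESeq2 called 4 lower. At an unadjusted p under 0.05 edgeR gave 3 higher and 9 lower.

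The double mutant, which also lacks Pbp1, allows the levels of the same mRNAs to be set beside these. TMM factors were now taken over all 9 libraries. By the study's methods this strain carries kanMX in place of *PAB1* and doubled more slowly than the others. WT and *pbp1Δ* cells had the same doubling time. The part of growth rate in these levels was not tested. *IMD2* stood at 366, 326 and 305 CPM in *pab1Δpbp1Δ*, 223, 250.0 and 227 CPM in *pbp1Δ* and 84.3, 81.8 and 86.4 CPM in WT libraries. *BSC1* had 1.22, 2.75 and 2.54 CPM in *pab1Δpbp1Δ*, 9.51, 11.5 and 11.6 CPM in *pbp1Δ* and 30.9, 39.7 and 37.8 CPM in WT libraries. For both genes *pbp1Δ* libraries lay between those of the other strains. *HO* likewise had 3.50 to 7.61 CPM in *pab1Δpbp1Δ*, 46.9 to 52.9 CPM in *pbp1Δ* and 79.5 to 93.8 CPM in WT libraries. Mitochondrial genes differed among themselves. *COX10* was at 21.3 to 22.6 CPM in *pab1Δpbp1Δ*, 20.8 to 23.5 CPM in *pbp1Δ* and 34.1 to 35.8 CPM in WT libraries. *MRPL24* had 10.6 to 16.8 CPM in *pab1Δpbp1Δ*, 12.4 to 14.1 CPM in *pbp1Δ* and 22.1 to 23.3 CPM in WT libraries. *MTO1*, in contrast, had 51.0 to 85.2 CPM in *pab1Δpbp1Δ*, 42.1 to 44.0 CPM in *pbp1Δ* and 75.8 to 81.3 CPM in WT libraries. *FYV4*, a small subunit protein of the mitochondrial ribosome that was among the 15 largest falls and in no list, had 14.5 to 21.1 CPM in *pab1Δpbp1Δ*, 8.97 to 9.64 CPM in *pbp1Δ* and 15.7 to 17.5 CPM in WT libraries. *CYC1* was highest in the double mutant, with 350 to 508 CPM in *pab1Δpbp1Δ*, 168 to 210 CPM in *pbp1Δ* and 261 to 289 CPM in WT libraries. No test was made of these levels, and the fold changes of the strains share libraries.

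**Figure D5:**
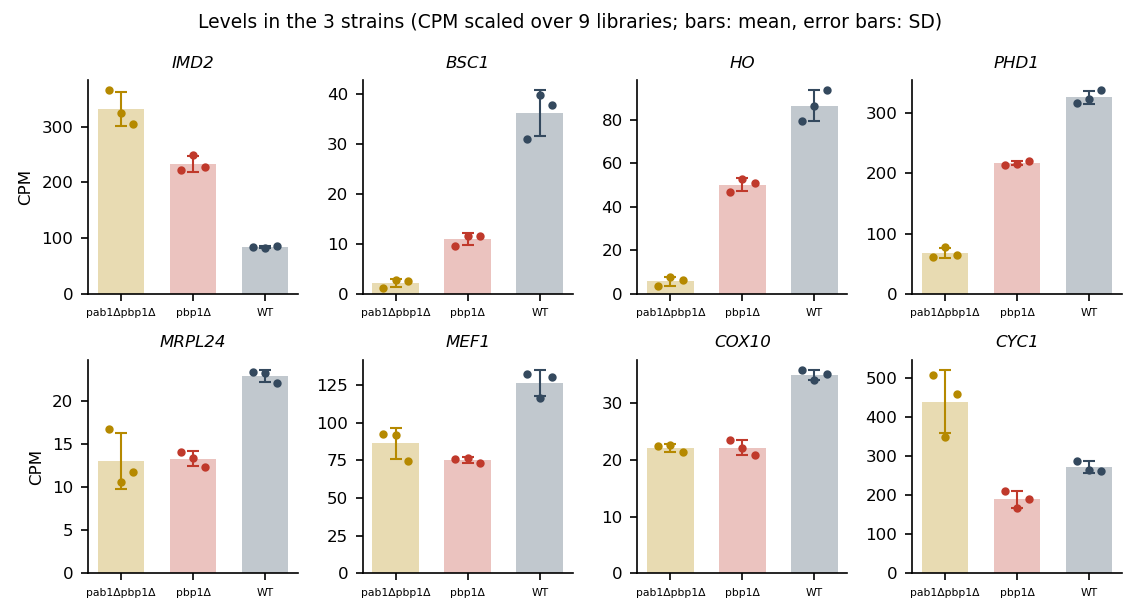
Levels (CPM scaled over 9 libraries, vertical axes from 0) of 8 mRNAs in *pab1Δpbp1Δ*, *pbp1Δ* and WT libraries. Points are libraries, bars means and error bars the SD (n = 3). *BSC1*, *HO* and *PHD1* are lowest in *pab1Δpbp1Δ*, *IMD2* is highest there, and *COX10* is at 21.3 to 22.6 CPM in *pab1Δpbp1Δ* and 20.8 to 23.5 CPM in *pbp1Δ* libraries, below the WT libraries.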

How the data were processed

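By the study's methods rRNA was depleted, stranded libraries were built and reads were single-end. The authors aligned reads with Bowtie to yeast mRNAs, pre-mRNAs and other RNAs and deposited RSEM expected counts for each transcript, without normalization. FPKM values, which the authors deposited as well, divide these by transcript length and library size. The submitters' processing notes name RSEM 1.3.0, Bowtie 1.0.0 and build R64. The per-locus count table served as an alternative, and the per-locus FPKM table was not used here.

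Expected counts were rounded, and edgeR 4.0.16 (R 4.3.3, limma 3.58.1) fitted them: filterByExpr with a minimum count of 10, TMM factors, robust quasi-likelihood F test, Benjamini-Hochberg adjustment over all 6425 tested entries, threshold 0.01. Of the mRNA entries, 495 were not tested. The SE is the fitted log2 fold change divided by the root of F. The study used DESeq2, here an alternative (1.42.0). The code was tested on simulated data. CPM are expected counts divided by the TMM-scaled library size over the tested entries. Gene lists, 46 in all, are given by counts and medians, and members and lists were chosen with earlier results of these data known. Genes were named by rule: *PBP1*, *PAB1* and *URA3*, the 15 largest rises and falls among called mRNAs with at least 50 normalized counts on average and no overlap of strains, and in each list the called members, the 3 largest changes and every member of lists of up to 14. *FLO11*, *TEC1*, *STE12*, *MKT1*, *LSM12* and *PBP4*, where outside the rule, were named for their role. Motifs were searched in the RefSeq R64 genome. N stands for any base. Of mRNA entries, 5913 had a RefSeq gene. Names of 6 listed genes were not matched. Chromosome numbers of genes follow RefSeq.

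The libraries of a strain are separate samples by their labels. Whether p-values reflect the spread between cultures is not known for WT cells. Alternatives were other scalings, filters, thresholds, tools and tables, a replicate block, the WT libraries summed to 1 sample, all 9 libraries and each library left out.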

Additional observations from a re-analysis of the deposited data

How the results depend on the processing

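The 722 called mRNAs (334 higher, 388 lower) became 1123 with DESeq2 (645 lower), 1513 at an adjusted p under 0.05 (759 higher, 754 lower), 166 when a log2 change of 0.5 or more either way was also required (80 higher, 86 lower), 222 with the WT libraries summed (61 higher, 161 lower) and 18 with all 9 libraries (5 higher, 13 lower). Leaving out 1 library gave 316 to 672 calls, with 126 to 296 higher and 190 to 376 lower. The replicate block gave 1405 calls (633 higher, 772 lower). Deviations of same-numbered libraries from their strain means correlated at 0.19, -0.01 and 0.04, and not every library correlated best with its own number, so the numbers are not shown to pair the libraries. The median of the small mitochondrial ribosome subunit was -0.37 with no count filter and -0.32 with upper-quartile scaling, and -0.38 to -0.34 without 1 library, and that of mitochondrial gene expression was -0.33 to -0.25 without 1 library. Upper-quartile scaling moved the median of all mRNAs to 0.05. Summing the WT libraries changed the spread, the number of samples and the entries tested together. The causes of these differences were not tested. Of 280 called mRNAs among those named by rule, none changed direction under any alternative run, 125 were called in all 6 fits without a library, 145 lost the call with the WT libraries summed, 266 with all 9 libraries and 56 with upper-quartile scaling. Of 690 list medians, 35 changed sign, all of lists whose median was within 0.07 of 0. With 3 libraries against 3, an exact permutation test of a single mRNA cannot give a two-sided p below 0.1, so no such test is given. The part of depth was not tested, and entries with few counts, near-identical copies and the 22 tested entries that shared all counts with another are uncertain.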

Other observations

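Cell wall mRNAs moved in both directions. Of 46, 3 were higher and 6 lower (19.6% called, against 11.9% of all mRNAs, median -0.02), with 5 higher and 11 lower by DESeq2 and 2 to 9 calls without 1 library. *SCW10*, a cell wall glucanase-like protein, had a log2 fold change of -0.43, and its call was lost with the WT libraries summed to 1 sample. Of 61 amino acid biosynthesis mRNAs, 4 were higher and 6 lower (16.4% called, median -0.00), with 3 to 10 calls without 1 library. *HIS4*, a histidine synthesis enzyme, and *ARG1* led the falls, with log2 fold changes of -0.55 and -0.67. Of 19 cyclin and G1 mRNAs 1 was higher and 2 lower (15.8% called), with 0 to 3 calls without 1 library. These 2 were the G1 cyclins *CLN1* and *CLN2*, with -0.44 and -0.41, and *CLN2* lost its call in 4 of the 6 fits without a library.

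Of 34 autophagy and TORC1 mRNAs 4 were lower, among them *SCH9*, a kinase downstream of TORC1, with a log2 fold change of -0.41 and a call that was lost with the WT libraries summed to 1 sample. Of 33 oxidative stress mRNAs 3 were higher and 1 lower, and of 30 iron regulon mRNAs 3 were lower. Without 1 library, 1 to 4 autophagy, 1 to 5 oxidative stress and 1 to 2 iron mRNAs were called. Of 33 mRNAs of the pheromone response, 3 were higher and 3 lower (median 0.08), of 47 general stress mRNAs 1 was higher and 4 lower (median -0.03), and of 26 glycolysis and fermentation mRNAs 1 was lower (median -0.00). Of 34 proteasome mRNAs 4 were higher and 30 had a positive log2 fold change (median 0.11). The shares called were 18.2% for the pheromone response, 10.6% for general stress, 3.8% for glycolysis and fermentation and 11.8% for the proteasome. Leaving out 1 library gave 2 to 5 calls for the pheromone response, 1 to 5 for general stress, 0 or 1 for glycolysis and fermentation and 1 to 3 for the proteasome. No mRNA of 25 cytosolic chaperones was called by edgeR or DESeq2, with 4 higher and 2 lower at an unadjusted p under 0.05 in edgeR. Of 11 histone mRNAs none was called by edgeR, with 1 higher and 2 lower at an unadjusted p under 0.05, and DESeq2 called 2 lower.

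Of 29 mRNAs of meiosis and sporulation, 4 were higher and 1 lower (17.2% called, against 11.9% of all mRNAs, median 0.17). The 5 calls became 2 without WT replicate 1, WT replicate 3, *pbp1Δ* isolate 2 or isolate 3. All 4 that rose belonged to the lowest of 5 equal groups by WT level, as did 22 of the 29 members, and that group as a whole had a median of 0.19. *SPO74*, a spindle pole body protein of sporulation, was the largest of these rises (2.64 ± 0.143 CPM in *pbp1Δ* and 1.08 ± 0.141 CPM in WT cells, SD, n = 3 each). *STE3*, the a-factor receptor of alpha cells, had 3.03, 3.05 and 2.83 CPM in *pbp1Δ* isolates and 1.68, 1.13 and 1.26 CPM in WT libraries (log2 fold change 1.14), while *MF(ALPHA)1* stayed at 0.30 to 0.37 CPM in *pbp1Δ* and 0.21 to 0.29 CPM in WT cells.

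Entries chosen after their values were seen showed single libraries that stood apart. YLR154C-G, in the rDNA of chromosome XII, had 332, 5026 and 347 CPM in *pbp1Δ* isolates 1, 2 and 3 and 362, 331 and 477 CPM in WT libraries, and took 0.498% of all expected counts of isolate 2. *CTR1*, the high-affinity copper transporter, had 265, 259 and 221 CPM in *pbp1Δ* isolates and 280, 337 and 117 CPM in WT libraries. *FRE7*, a copper-regulated reductase, had 45.8, 51.1 and 40.3 CPM in *pbp1Δ* and 35.5, 61.2 and 7.56 CPM in WT libraries. WT replicate 3 was thus the lowest library for both, although the methods describe the WT libraries as technical replicates.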
